A study of Mus musculus with 2 samples.

Results

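Open chromatin regions in the later introns of very long genes were examined in T-helper 1 cells, the CD4 T cells that carry T-bet and secrete interferon-γ. A region was counted when it was found in the lists of both replicates with an overlap of at least 1 bp, lay wholly inside a GENCODE M21 protein-coding gene of 200 kb or more, stayed over 1 kb from every annotated transcript start, overlapped no exon and lay outside the first intron of the longest protein-coding transcript. This rule found 6068 of 84380 shared regions, or 7.19%. The measurement was, per the labels, ATAC-seq, which marks accessible DNA by where a transposase cuts it. The series held 1 group, T-helper 1 primary cells of the strain C57BL/6NJ, with 2 biological replicates and no treatment, second strain or second cell type. The labels give both replicates the same donor identifier and separate biosamples, give no age and record no sex, and leave it unsaid if separate animals were used. The region names also carry the word ASTARR and a time of 96 hours, whose meaning is not stated. With a single group there was no test between conditions, and the spread given for densities, signals and widths is the difference between the 2 replicates. Motif shares carry intervals over regions instead.

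The replicate 1 list held 98875 regions and the replicate 2 list 91488. Read depth is unknown for both, so no counting interval for reads can be given. The cell type label was checked on promoters: 10 of 10 T cell and Th1 markers had a shared region within 1 kb of a start, as did 1 of 4 B cell markers, 2 of 5 myeloid markers, 3 of 5 neuronal markers and 0 of 3 hepatocyte markers. The 3 open neuronal marker promoters were those of Rbfox3, Map2 and Tubb3. Of 993 genes of 200 kb or more, 65.7% had such a promoter region, and the share over all coding genes is not given here. Open promoters were thus common, and these counts alone do not settle the cell type.

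Introns make up most of a very long gene, and enhancers, the distal elements that raise transcription from a promoter, often lie in them. Many of the longest mammalian genes encode synaptic adhesion proteins and ion channels of neurons. Others encode transcription factors and signalling proteins that lymphocytes use. Accessible DNA outside promoters often carries the motifs of the factors active in the cell, which in T cells include AP-1 (dimers of Fos, Jun and Batf proteins), RUNX and ETS factors.

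The sequences below were picked because they hold motif matches, or because they belong to the strongest regions. Each is the mm10 plus strand with 50 bp on each side of the replicate 1 summit, the point of highest signal, read 5′ to 3′. Capitals mark matches on either strand to the 16 motifs searched. The Runx1 window (chr16:92620892-92620992) holds the AP-1 letters TGANTCA at 2 places, the Bach2 window (chr4:32406102-32406202) holds an NF-kB match and the Etv6 window (chr6:134225712-134225812) an IRF match. All 3 come from the strongest region in a T cell transcription factor gene. The Prkca window (chr11:108261854-108261954) holds an E-box and an IRF match. NF-kB letters were within 100 bp of the summit in 1.80% of later intron regions against 1.61% of all shared regions. IRF letters were in 6.61% against 4.99%, and the E-box in 13.9% against 15.1%. The windows of the strongest regions in Foxp1, Inpp4b and Dock2, also T cell genes, had no match and are not printed. That of Itpr1, with only a CTCF core match, is not printed either.
Runx1: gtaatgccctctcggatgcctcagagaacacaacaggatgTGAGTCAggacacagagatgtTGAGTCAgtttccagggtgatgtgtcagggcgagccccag
Bach2: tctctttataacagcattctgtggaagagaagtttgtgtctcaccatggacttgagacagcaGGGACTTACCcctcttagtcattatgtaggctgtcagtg
Etv6: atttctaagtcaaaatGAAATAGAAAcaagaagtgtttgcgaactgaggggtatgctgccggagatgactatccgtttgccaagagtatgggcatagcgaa
Prkca: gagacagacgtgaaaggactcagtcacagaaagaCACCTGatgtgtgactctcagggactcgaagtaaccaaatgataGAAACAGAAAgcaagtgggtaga

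The next 5 windows come from the 10 strongest regions of all. The Cacna1e window (chr1:154876045-154876145) holds AP-1 letters at 3 places, of which 1 overlaps a T-box match so that both appear as 1 run of capitals. The Pde4d window (chr13:108603646-108603746) holds a RUNX match and the Wdr70 window (chr15:7925583-7925683) an ETS match. The Cntnap5b window (chr1:100180156-100180256) belongs to the strongest region and has no match to any motif searched. The Gphn window (chr12:78350888-78350988) belongs to the next strongest and holds 2 E-box matches.
Cacna1e: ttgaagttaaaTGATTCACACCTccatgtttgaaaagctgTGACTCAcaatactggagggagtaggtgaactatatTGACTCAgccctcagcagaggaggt
Pde4d: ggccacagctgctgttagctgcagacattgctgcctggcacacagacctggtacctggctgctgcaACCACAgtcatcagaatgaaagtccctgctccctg
Wdr70: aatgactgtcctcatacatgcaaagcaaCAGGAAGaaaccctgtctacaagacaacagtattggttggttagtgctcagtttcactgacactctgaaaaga
Cntnap5b: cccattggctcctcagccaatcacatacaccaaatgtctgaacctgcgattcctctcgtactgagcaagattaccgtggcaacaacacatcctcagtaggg
Gphn: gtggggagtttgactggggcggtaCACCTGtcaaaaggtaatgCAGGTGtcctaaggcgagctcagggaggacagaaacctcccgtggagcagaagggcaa

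Later intron regions were unevenly spread over the very long genes. Of 996 genes of 200 kb or more, 993 had later intron sequence that a region could occupy, and 662 of these held at least 1 region, which is 66.7%. The other 331 genes held none, 102 held exactly 1, 241 held 10 or more and 76 held 20 or more. The regions made 6087 pairs of region and gene, since 19 regions lay in 2 long genes, and 126 genes held as many pairs as the rest together. Density was expressed as regions per 100 kb of eligible later intron, that is the gene without exons of any gene, starts with 1 kb on each side, assembly gaps and the first intron. The median gene had 1.01 regions per 100 kb (interquartile range 0 to 4.08), the median was 1.36 in the replicate 1 list and 1.13 in the replicate 2 list, and the densities of the 2 lists had a Spearman correlation of 0.971 across the 993 genes.

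Pooled over their 313.57 Mb of sequence, the regions had a density of 1.94 per 100 kb. First introns of the same length class had 2.20 per 100 kb, later introns of shorter genes 3.95, first introns of shorter genes 5.47 and intergenic sequence 1.73. The later introns of very long genes therefore sat nearer to intergenic sequence in density than to the introns of shorter genes. The 200 kb limit did not fall at a step: the 50 genes just over it had a median of 2.46 per 100 kb and the 50 just under it 2.22. The genes nearest the limit were Pcbp3, of 200.031 kb with 4 regions, and Atp9b, of 199.92 kb with 14.

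Genes on the T cell lists held many more later intron regions than genes on the neuronal lists. The gene lists were chosen with earlier results of these data known, so the values describe these lists and are no independent test. The 33 very long T cell genes had 667 regions in 8.54 Mb, a pooled density of 7.81 per 100 kb, against 268 regions in 77.4 Mb, or 0.346 per 100 kb, for the 147 neuronal genes. The pooled density of T cell genes was 22.6 times that of neuronal genes. The ratio was 21.1 in the replicate 1 list alone and 21.9 in the replicate 2 list alone. Both lists cover the same genes, so their closeness does not measure the spread between genes, which is given below. By the rule used, all 33 T cell genes held a region, and 58 of the 147 neuronal genes did, against 66.7% of all very long genes. A density of 5 or more per 100 kb, reached by 19.3% of all very long genes, was reached by 25 of the 33 T cell genes and by 2 of the 147 neuronal genes.

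**Figure D1:**
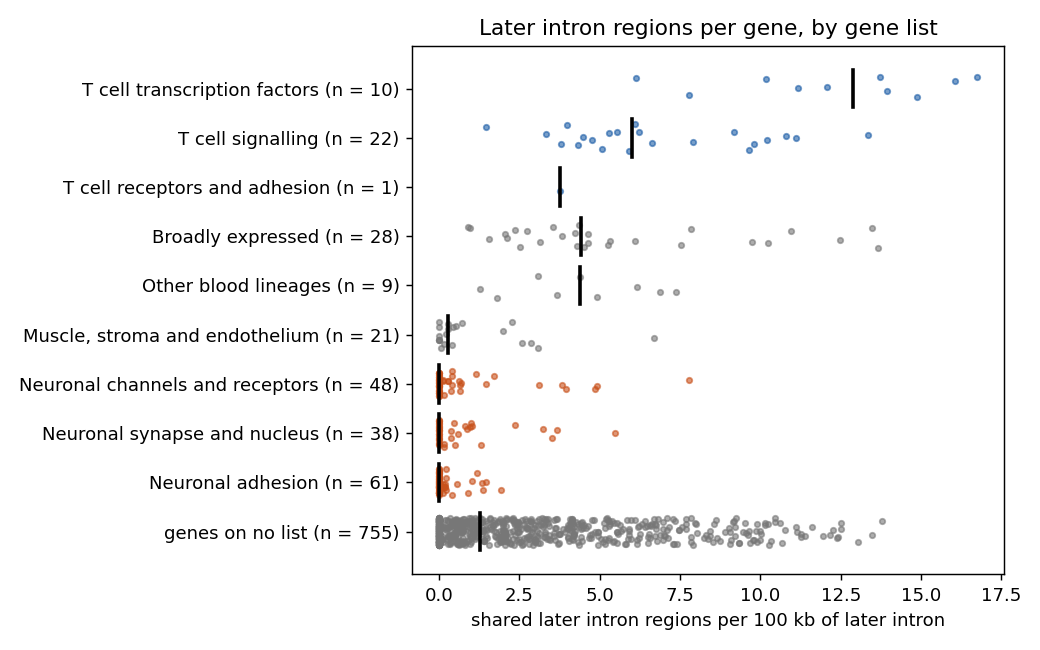
Density of later intron regions per gene (x axis, shared regions per 100 kb of later intron) for each gene list (y axis). Points are genes, scattered vertically within a list, and black bars are list medians. The 10 T cell transcription factor genes lie between 6.12 and 16.7 per 100 kb, while the medians of the 3 neuronal lists are 0.

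The 2 classes overlapped in range. The median T cell gene had 7.78 regions per 100 kb (interquartile range 5.07 to 11.1, from 1.45 to 16.7), and all 33 exceeded the median of all very long genes. The median neuronal gene had 0 (upper quartile 0.392, highest 7.78). Of the neuronal genes 1 exceeded the median T cell gene and 15 exceeded the lowest T cell gene.

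The T cell transcription factor genes were the densest list. As the lists were chosen with earlier results known, this order describes the lists and does not test T cell genes. Of its 37 genes 10 reached 200 kb, and these had 262 regions, a pooled density of 12.2 and a median of 12.9 per 100 kb. Jazf1, a zinc finger protein of a histone acetyltransferase complex, had the highest density of all very long genes, 16.7 per 100 kb from 20 regions, with 20.1 per 100 kb in each replicate's own list. Bach2, a repressor that restrains effector differentiation of T cells, had 16.1 per 100 kb from 40 regions, with 20.1 in replicate 1 and 17.3 in replicate 2. Jazf1 was the higher of the pair in all 3 sources, by 16.75 against 16.05 in shared regions and by 20.10 against 20.07 in replicate 1. With 119.419 kb of later intron in Jazf1, 1 region fewer there would reverse both of these orders.

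Maml2, a coactivator of Notch signalling, had 12 regions and 14.9 per 100 kb (16.1 in each replicate's list). Foxp1, a forkhead factor that maintains quiescence of naive T cells, had 66 regions and 13.9 per 100 kb (15.8 and 14.6). Etv6, an ETS family repressor, had 25 regions and 13.7 per 100 kb (16.5 and 14.8). These 3 genes lay closer together than the 2 replicate values of Etv6. Of the Foxp1 regions 31 also lay inside Gm20696, a protein-coding gene model that overlaps Foxp1.

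Runx1, a Runt domain factor of T cell development, had 25 regions and 12.1 per 100 kb (12.5 in each replicate's list). Tcf12, an E protein, had 24 regions and 11.2 per 100 kb (14.9 and 13.5), and Rora, a retinoid-related orphan receptor, had 18 regions and 10.2 per 100 kb (11.3 in each). Runx2 had 7.78 per 100 kb from 23 regions. Tox, an HMG box factor of T cell development and exhaustion, had the lowest density of the list, 6.12 per 100 kb from 9 regions (7.48 and 6.80).

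Genes on the T cell signalling list were less dense than the transcription factor genes and more dense than the median very long gene. Of the 47 listed genes 22 reached 200 kb, and they had 385 regions, a pooled density of 6.57 and a median of 6.00 per 100 kb. Gramd1b, a cholesterol transport protein, led the list with 13.4 per 100 kb from 12 regions (14.5 in replicate 1 and 13.4 in replicate 2). Itpr1, an inositol trisphosphate receptor that releases calcium, had 33 regions and 11.1 per 100 kb (13.1 and 12.8). Its relative Itpr2 had 16 regions and 4.76 per 100 kb (6.25 and 5.06).

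Among kinases, Prkca, protein kinase C alpha, had 42 regions and 10.8 per 100 kb (13.4 and 11.6). Prkcb, protein kinase C beta, had 19 regions and 6.21 (6.86 and 7.19). The calcium-dependent kinase gene Camk4 had 11 regions and 9.81 (10.7 and 9.81), and the Traf2 and Nck interacting kinase gene Tnik had 13 and 4.47 (5.85 and 4.81). Themis, needed for thymocyte selection, had 15 regions and 10.2 per 100 kb, with 15.6 in replicate 1 and 12.2 in replicate 2, the widest gap between shared and replicate 1 values in the list.

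Regulators of the cytoskeleton and of small GTPases ranged from 3.32 to 9.65 per 100 kb. The exchange factor genes Dock10, Dock2 and Dock8 had 9.65, 7.90 and 3.79, from 12, 29 and 5 regions. Elmo1, whose product binds Dock2, had 20 regions and 5.07 per 100 kb. The formin gene Fmnl2 had 6 and 5.27, the exchange factor gene Vav3 10 and 3.99, and the Rac inactivator gene Arhgap15 20 and 3.32.

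Phospholipid and cyclic nucleotide enzymes also lay in this list. Inpp4b, a phosphatase of phosphatidylinositol bisphosphate, had 57 regions and 9.17 per 100 kb (10.9 and 10.3). Pde4b, a cyclic AMP phosphodiesterase, had 22 and 5.55 (6.06 and 6.56), and the phospholipase C related gene Plcl1 had 3 and 5.91 in each source. The adaptor gene Skap1 had 17 regions and 6.64 per 100 kb, the N-glycan branching enzyme gene Mgat5 had 13 and 6.10, and the C2 domain gene Mctp2 had 7 and 4.33. Of the 26 listed receptor and adhesion genes only the sodium-proton exchanger gene Slc9a9 reached 200 kb, with 20 regions and 3.77 per 100 kb (5.28 and 4.15).

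**Figure D2:**
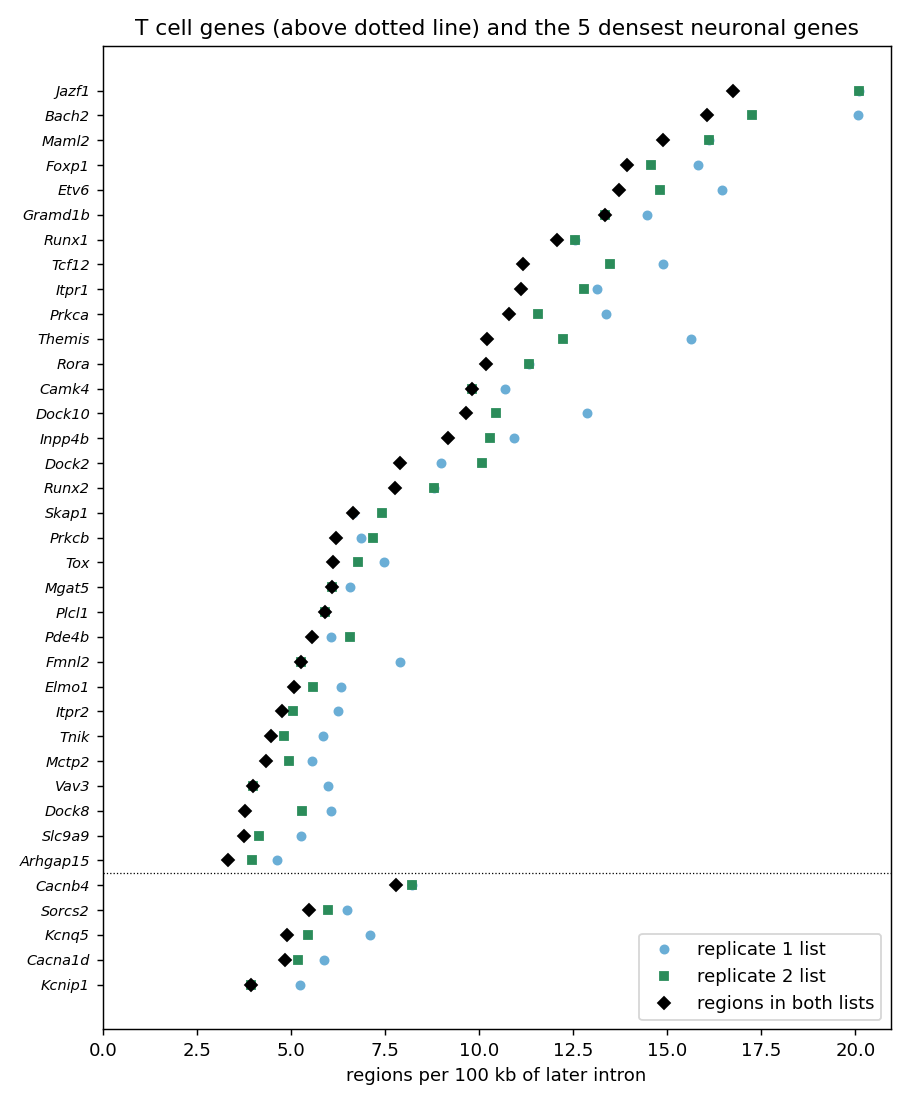
Regions per 100 kb of later intron (x axis) for 32 T cell genes, above the dotted line, and the 5 densest neuronal genes, below it. Diamonds count regions in both lists, circles the replicate 1 list and squares the replicate 2 list; where symbols coincide, the later drawn one covers the others. Cacnb4, at 7.78 per 100 kb, lies as high as Runx2, while the other neuronal genes shown lie at 5.49 or lower.

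Neuronal adhesion genes were the emptiest list. Of the 61 very long genes in it 43 held no shared later intron region, and the pooled density was 0.149 per 100 kb, with 0.206 in replicate 1 and 0.179 in replicate 2. The receptor phosphatase gene Ptprd (1960.21 kb of later intron), the LDL receptor related gene Lrp1b (1687.11 kb) and the complement domain gene Csmd1 (1284.74 kb) were the longest without a region, and neither replicate's list had any region there. The densest of the list were the teneurin gene Tenm4, with 10 regions and 1.94 per 100 kb, the netrin receptor gene Unc5c, with 2 and 1.46, and Dscaml1, with 4 and 1.37.

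Of the 48 neuronal channel and receptor genes 26 held none, and the pooled density was 0.577 per 100 kb. Cacnb4, a calcium channel beta subunit, had 18 regions and 7.78 per 100 kb (8.22 in each replicate's list). The potassium channel gene Kcnq5 had 9 and 4.91 (7.09 and 5.46) and the calcium channel gene Cacna1d 14 and 4.84 (5.88 and 5.19). The proton-gated channel gene Asic2 (89.574 kb of later intron) held no region in either list, and Kcnip4 (109.422 kb) held 2 regions in the replicate 1 list and 0 in the replicate 2 list.

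Of the 38 genes of the synapse and the neuronal nucleus 20 held none, with a pooled density of 0.547 per 100 kb. The sorting receptor gene Sorcs2 had 11 regions and 5.49 per 100 kb (6.48 and 5.98), and the phosphodiesterase gene Pde1a had 3 and 3.50. Celf2 had 26 regions and 3.66 per 100 kb (4.79 and 4.51). Celf2 is an RNA splicing regulator known from lymphocytes as well as neurons, so its place on a neuronal list does not make it a gene silent in T cells. The splicing factor gene Rbfox1 (1223.26 kb of later intron) had no shared region and 1 region in the replicate 2 list, and Nkain2 and Sgcz had none in either list. Over the 3 neuronal lists 81 genes had no region in either list and 8 had a region in 1 list only or in both without overlap.

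Broadly expressed genes lay between the T cell and neuronal genes. All 28 held a region, with a pooled density of 4.26 and a median of 4.43 per 100 kb, and 11 of them reached 5 per 100 kb. Nsmce2, of the SMC5/6 complex, had 30 regions and 13.7 per 100 kb, the coactivator gene Zmiz1 19 and 13.5, and the nuclear receptor coactivator gene Ncoa2 15 and 12.5. The 9 genes of other blood lineages all held regions, with a median of 4.39 per 100 kb. Among them were Erg, an ETS factor of blood stem cells and endothelium, with 12 regions and 7.36, Mitf, a factor of mast cells and melanocytes, with 5 and 6.88, and Ebf1, a B cell factor, with 23 and 6.16.

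Genes of muscle, stroma and endothelium were sparse, with a median of 0.289 per 100 kb, and 6 of 21 held none. Pard3, a cell polarity gene, had 28 regions and 6.69 per 100 kb, and it was the one gene of the list that reached 5. Cacnb2 had 10 and 3.07, and Tshz2 had 5 and 2.85. Sgcd, Gpc6 and Cdh13 were the longest without a region in either list.

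Of the 20 densest genes of all, 7 were on a T cell list, 3 on the broadly expressed list, 0 on a neuronal list and 10 on no list. Those on no list among the 12 densest were the chondroitin sulfotransferase gene Chst11, with 13 regions and 13.8 per 100 kb, the exchange factor gene Arhgef3, with 33 and 13.5, the RNA binding protein gene Rbms1, with 11 and 13.0, and the sphingomyelin synthase gene Sgms1, with 25 and 12.5. Besides the 331 genes with none, the lowest densities were those of 6 genes: Macrod2, Gpc5, Ccser1, Lrmda, Astn2 and Spag16 each held 1 shared region, with densities from 0.0513 to 0.117 per 100 kb. Their later introns measured from 855.495 kb in Spag16 to 1948.4 kb in Macrod2.

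The largest numbers of regions were in Fgfr2 (81), Foxp1 (66), Inpp4b (57), the adhesion plaque gene Lpp (53) and Gm37240 (52). Fgfr2 and Gm37240 are very long gene models, of 2960.9 kb and 1391.09 kb, that run over other protein-coding genes. Of the Fgfr2 regions 52 lay inside another protein-coding gene, with 13 in Tacc2 and 12 in Fam53b, and of the Gm37240 regions 29 did, with 12 in Fbxw7. Over all very long genes 266 of 6068 regions, or 4.38%, lay inside another protein-coding gene, as did 41 of the regions in T cell genes and 1 of those in neuronal genes.

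An open promoter, meaning a shared region within 1 kb of any start of the gene, moved with the density. Of the 993 genes 65.7% had one, against 33 of 33 T cell genes, 28 of 28 broadly expressed genes and 48 of 147 neuronal genes. Genes with an open promoter had a pooled density of 3.07 and those without 0.273 per 100 kb. Neuronal genes with an open promoter had 0.916 (median 0.549, with 15 of 48 at 0), and those without had 0.116 (74 of 99 at 0). The T cell genes, all with open promoters, had 7.81. The neuronal genes with an open promoter were longer than the T cell genes (median 473 against 338.0 kb). They were also poorer in GC (40.6 against 43.2%), and the part of promoter state was not tested.

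Gene length and base composition moved with the density too. Across the 993 genes, which share the 2 libraries and the assembly, the Spearman correlation of density was -0.28 with gene length, 0.43 with GC content and 0.61 with an open promoter. T cell genes were shorter than neuronal genes (median 338.0 against 599 kb) and richer in GC (43.2 against 39.1%). Within genes of 200 to 300 kb the pooled density was 8.55 for 14 T cell genes and 1.53 for 15 neuronal genes. It was 8.17 for 11 and 0.672 for 44 between 300 and 500 kb, and 7.07 for 8 and 0.308 for 53 between 500 and 1000 kb.

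In the 249 genes lowest in GC, 5 T cell genes had 6.63 and 76 neuronal genes 0.197, and in the 248 highest in GC 14 T cell genes had 10.3 and 22 neuronal genes 1.31 per 100 kb. T cell genes were denser than neuronal genes in each of these length classes and in each of the 4 GC classes, all of which held both. Length, GC and promoter state were each taken alone. The part of gene expression, promoter state, gene length, mappability and sequence composition in these densities was not tested.

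Within a gene, neither the later introns nor the first intron was the denser part throughout. Of 670 genes with at least 20 kb of each, 250 were denser in later introns, 214 were denser in the first intron, and 206 had no region in either. The later introns were thus the denser part in 53.9% of the genes that had any region. This share fell to 49.5% when the first introns of every protein-coding transcript were left out, so neither direction was stable. Of the T cell genes 10 were denser in later and 15 in the first intron, against 34 and 22 of the neuronal genes. In Bach2 the first intron had 19.2 per 100 kb and the later introns 16.1, in Foxp1 7.63 and 13.9, and in Inpp4b 2.32 and 9.17.

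Regions in T cell genes often stood in runs, here regions of 1 gene with gaps of at most 12.5 kb. Runs of 5 or more regions held 58.9% of the regions in T cell genes, 30.8% of all and 16.0% of those in neuronal genes. The longest run by number was in Bach2, with 28 regions over 148.077 kb (chr4:32318387-32466463). Foxp1 had a run of 22 over 98.361 kb, Prkca one of 22 over 121.487 kb, Inpp4b one of 19 over 90.133 kb and Lpp one of 18 over 98.512 kb. The median distance from a region to the next shared region was 3.41 kb in T cell genes, 4.91 kb over all and 7.07 kb in neuronal genes. Runs follow from density, so these values describe the same difference in another form.

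**Figure D3:**
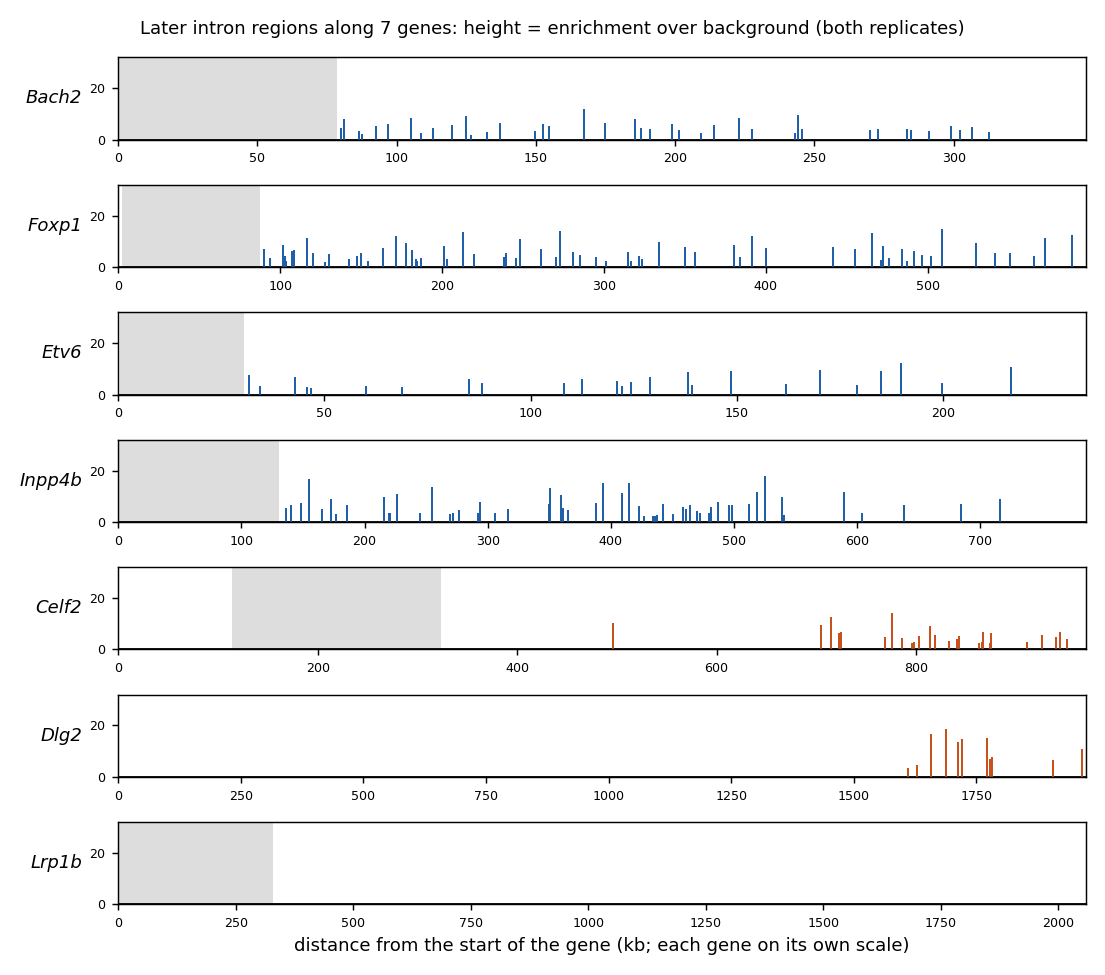
Later intron regions along 7 genes, each from its start at the left (x axis, kb, own scale per gene), with bar height the geometric mean of the 2 replicates' signal (y axis, enrichment). Grey marks the first intron of the longest coding transcript, whose regions are not drawn; in Dlg2 it is under 1 kb. Bars fill Bach2, Foxp1, Etv6 and Inpp4b, sit mostly toward the end of Celf2 and Dlg2, and are absent from Lrp1b.

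Intron 2 of the longest transcript held 34.5% of the regions in T cell genes, 21.6% of all and 20.9% of those in neuronal genes. It made up 24.5, 21.2 and 21.2% of the eligible sequence of these classes. The last 10% of the gene held 25% of the regions in neuronal genes, where it made up 12.3% of eligible sequence. In T cell genes that part held 8.40% of regions and 12.2% of sequence, and over all genes 12.4 and 11.6%. The 67 neuronal regions there lay in 30 genes.

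The regions in T cell genes were wider than those in neuronal genes, and their signal was not clearly different. Signal is column 7 of the lists, the enrichment given by the authors' caller, and is a value of each region within its list. All 6068 regions had a median signal of 6.59 in replicate 1 and 6.30 in replicate 2 and a median width of 637 bp (interquartile range 450 to 877). In T cell genes the medians were 5.95 and 5.84 with 666 bp, and in neuronal genes 6.67 and 6.30 with 552 bp. Measured in each list alone, the median widths were 606 and 605 bp in T cell genes and 507 and 470.5 bp in neuronal genes. The regions in T cell genes were thus the wider ones in both lists. Taken as the median of gene medians over genes with at least 3 regions, signal was 6.25 and 6.01 in 33 T cell genes and 6.60 and 5.91 in 34 neuronal genes, so that the order of the classes turned between replicates. Width by that measure was 661.5 bp against 554.75 bp. Among the 50000 regions of highest −log10 p in each list the ratio of the median widths, T cell over neuronal, was 1.02, against 1.21 over all regions.

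Set beside other places, the later intron regions of very long genes resembled first intron regions of the same genes (signal 6.33 and 6.03, width 661 bp), later intron regions of shorter genes (6.23 and 6.10, 637 bp) and intergenic regions (6.65 and 6.43, 663 bp). Promoter regions were stronger and wider (9.05 and 8.84, 1145 bp). Between replicates the signals of a later intron region agreed within 1.5 times for 96.9% of regions, and for 99.4% in T cell genes and 92.5% in neuronal genes. Of the later intron regions of the replicate 1 list 83.6% were found in the other list, and of those of replicate 2 91.9%. The ones seen in 1 replicate had lower median signals, 3.32 in replicate 1 and 3.07 in replicate 2.

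**Figure D4:**
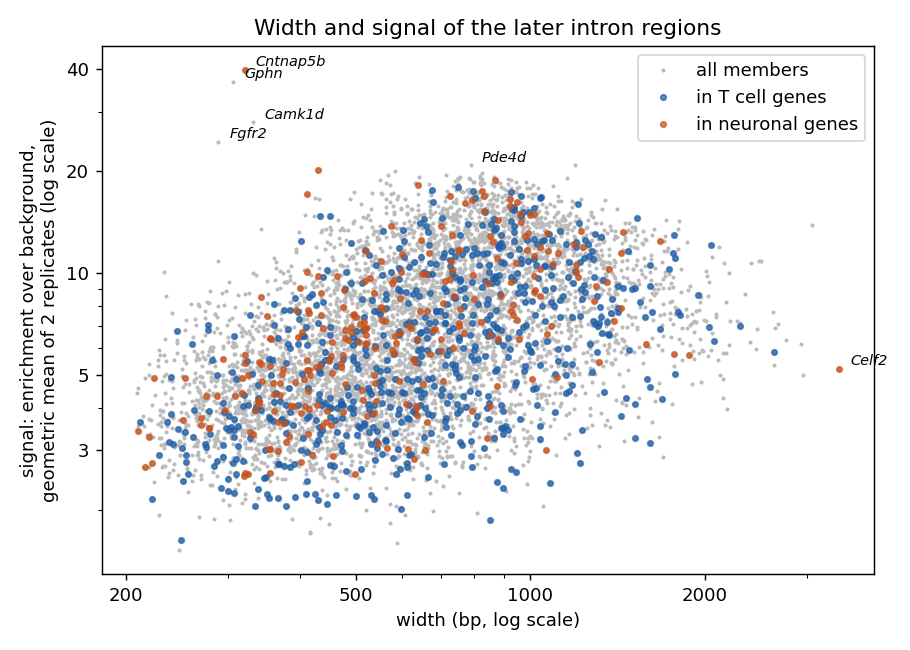
Width (x axis, bp, log scale) against signal (y axis, enrichment, geometric mean of 2 replicates, log scale) for all later intron regions in grey, with those in T cell genes in blue and in neuronal genes in orange. The regions in Cntnap5b, Gphn, Camk1d and Fgfr2 stand apart at widths of 289 to 332 bp and signals above 24, and the widest region, in Celf2, is 3415 bp.

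The 4 strongest regions were narrow and stood apart from the rest. The region in Cntnap5b (chr1:100180105-100180425, intron 10) had signals of 40.9 and 38.8, a −log10 q of 1330 and 1095 and a width of 321 bp, and the next shared region was 1590 kb away. The region in Gphn, the gephyrin gene (chr12:78350869-78351175, intron 2), had 37.6 and 35.9 over 307 bp. Those in the kinase gene Camk1d (chr2:5379043-5379374) and in Fgfr2 (chr7:130834361-130834649) had 28.4 and 27.4 over 332 bp and 24.9 and 24.0 over 289 bp.

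Parts of these 4 regions occur more than once in the assembly. At 80% identity or more over at least 80 bases, the printed Gphn window had 4 other matches, the best of 98.9% identity, and the printed Cntnap5b window had 3, the best of 93.1%. The window of Camk1d had 16 and that of Fgfr2 had 1. The Gphn window also matched the Fgfr2 region along its full length (chr7:130834503-130834603) at 96.0% identity, so those 2 regions share a stretch of sequence. How reads with several matches were treated is not given in the sources used here, and the part of the repeated sequence in the signal was not tested. To the eye the Cntnap5b, Gphn and Camk1d windows resemble large-subunit ribosomal RNA, which the genome holds in many copies. No ribosomal sequence was compared here, so whether these signals belong to the introns named was not tested.

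The 6 regions that followed had signals of 18.3 to 21.3 and widths of 429 to 1193 bp. Those in the phosphodiesterase gene Pde4d and the calcium channel gene Cacna1e were 790 bp (21.2 and 20.4) and 429 bp (20.1 and 20.2). Those in Wdr70 and Scaper were 825 bp (20.6 and 19.1) and 567 bp (20.8 and 18.3). The summit windows of Pde4d, Cacna1e, Wdr70 and Scaper, the only part searched, had no other match in the assembly by the same measure. The window in Foxn3 (584 bp, 19.97 and 20.04) had 3. The window in Ccdc7a (1193 bp, 21.3 and 20.6) was 96.5% soft-masked repeat sequence and had 29882 other matches. Over all later intron regions 206, or 3.39%, had windows that were at least 50% soft-masked, against 4.47% of all shared regions.

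The strongest region in each of the 8 T cell genes with most regions had signals between 11.7 and 18.5. In Dock2 it lay in intron 27 (chr11:34371991-34372785) with 17.6 and 17.5, in Inpp4b in intron 8 (chr8:81866963-81867711) with 17.4 and 18.5, and in Foxp1 in intron 8 (chr6:99013342-99014044) with 16.1 and 13.2. In Itpr1 it had 15.97 and 14.5 and in Runx1 (chr16:92620605-92621569, intron 6) 14.8 and 14.7. In Prkca it had 14.5 and 14.3, in Etv6 12.5 and 11.7, and in Bach2 (chr4:32405274-32406471, intron 2) 11.99 and 11.91. None of the printed windows of Runx1, Bach2, Etv6 and Prkca had another match.

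The widest regions had signals below or near the median, except that in Mid1, which was above the upper quartiles of 9.95 and 9.68. They lay in Celf2 (3415 bp, signals 5.07 and 5.39), the ubiquitin ligase gene Mid1 (3060 bp, 15.1 and 12.7), the kinase gene Sik3 (2959 bp, 5.40 and 4.62), the Ral exchange factor gene Ralgps1 (2930 bp, 6.43 and 5.93) and Abr (2761 bp, 6.54 and 6.22). The summit window in Mid1 was 75.6% soft-masked and had 360 other matches.

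AP-1 letters were the motif most often found, in 2069 of 6068 regions. The search covered the summit with 100 bp on each side, on both strands, and shares carry exact 95% binomial intervals that treat regions as independent, which neighbouring regions are not. The AP-1 letters TGANTCA, as in the printed Runx1 and Cacna1e windows, were in 34.1% of the regions (32.9 to 35.3), against 26.01% of all 84380 shared regions, 31.0% of first intron regions of very long genes, 31.2% of later intron regions of shorter genes, 30.5% of intergenic regions and 12.1% of promoter regions. Regions with these letters had median signals of 7.46 and 7.24, those without 6.09 and 5.88.

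The RUNX letters TGTGGT were in 27.1% (25.98 to 28.2) against 22.8% of all shared regions, and close to the 26.8% in first introns of very long genes and the 26.3% in later introns of shorter genes. The ETS letters CAGGAAG were in 15.8% (14.8 to 16.7). All shared regions had 15.3% and later introns of shorter genes 16.1%. First introns of very long genes had a higher share, 19.7% (17.96 to 21.6), and the difference was not tested. The CTCF core CCANNAGGG, of the factor that holds chromatin loops, was in 4.56% (4.05 to 5.12), against 5.74% of all shared regions, 4.28% in first introns of very long genes and 5.48% in later introns of shorter genes. The SP letters GGGCGGGG, typical of GC-rich promoters, were in 0.775% against 5.47% of all shared regions and 16.8% of promoter regions. The GC content of the windows moved with these shares, with a median of 46.3% in the later intron regions and 59.2% in promoter regions, and its part was not tested.

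**Figure D5:**
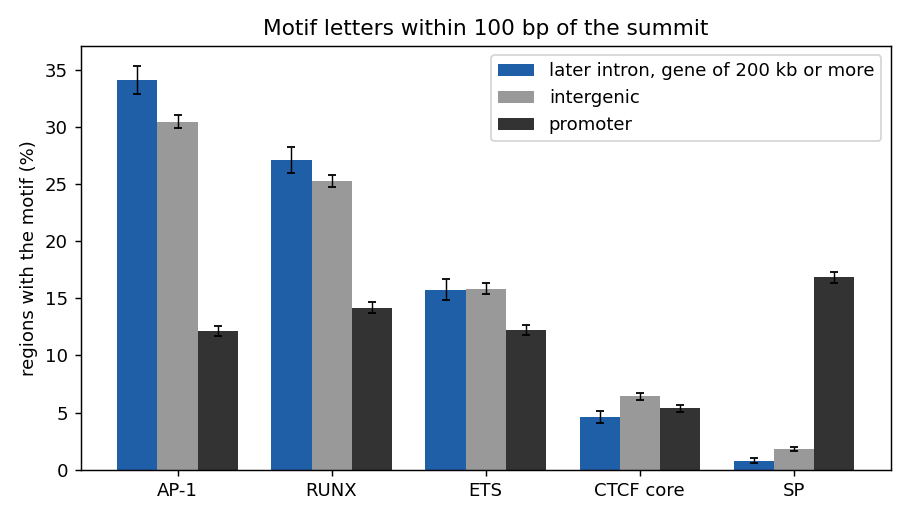
Share of regions with each motif within 100 bp of the summit (y axis, percent) for later intron regions of very long genes, intergenic regions and promoter regions. Error bars are exact 95% binomial intervals. AP-1 is at 34.1, 30.5 and 12.1%, and SP is at 0.775, 1.81 and 16.8%.

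The regions that neuronal genes did hold also carried AP-1, RUNX and T-box letters. AP-1 letters were in 32.3% of the 665 regions of T cell genes that lay in no other listed gene (28.8 to 36.0) and in 40.7% of 268 in neuronal genes (34.7 to 46.8), and RUNX letters in 24.7% (21.4 to 28.1) and 27.2% (22.0 to 33.0). The T-box letters AGGTGTGA, bound by the family of T-bet, were in 2.56% (1.496 to 4.06) and 2.24% (0.826 to 4.81). Over all later intron regions they were in 2.06% (1.72 to 2.45), against 1.62% of all shared regions and 0.905% of promoter regions. Later introns of shorter genes had 1.88% and intergenic regions 1.84%. First introns of very long genes had 2.504%. Of these 3 motifs the largest gap between T cell and neuronal genes was that of AP-1, with the higher share in neuronal genes. The intervals count regions of the same 2 libraries as independent, so they do not decide if the shares differ. No difference was tested.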

How the data were processed

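Per the labels, ATAC-seq was run on T-helper 1 cells in 2 biological replicates, and regions lie on mm10. The sources used here name neither aligner nor caller. The deposited lists are in narrowPeak format and each derives from the alignments of 1 replicate, per the text files deposited with them. For each region the authors give a display score, a signal (fold enrichment ratio, reference not stated), −log10 p and −log10 q, and a summit offset. The read depth is unknown. 89 and 85 regions outside chromosomes 1 to 19, X and Y were left out.

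Overlapping regions of both lists were joined into shared regions with the stronger signal of each replicate. Genes came from GENCODE M21 and sequence from GRCm38.p6, whose chromosome names fit the lists. The longest transcript was taken by genomic span. Counting was tested on simulated data. Tools were Python 3.11.15, numpy 2.4.6, pandas 2.3.3, scipy 1.17.1 and blastn 2.17.0.

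The members, the 9 gene lists (356 symbols) and the motifs were chosen with earlier results of these data known. Named were the 12 highest and the 6 lowest densities above 0 in genes with at least 50 kb of later intron, all T cell genes, the 3 densest and the 3 longest empty genes of each other list, the 10 strongest and 5 widest regions, the strongest region of 8 T cell genes and the 5 genes with most regions. For 2 genes, 1 of them on a T cell list, no value is reported here, and both stay in every count, median and range. Dlg2 in the gene tracks was chosen after its values were seen. No comparison between groups was possible with 1 group, so no p-value is given.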

Additional observations from a re-analysis of the deposited data

How the results depend on the processing

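Over 14 alternatives the T cell genes were denser than the neuronal genes, by 20.4 to 27.7 times. That ratio was 27.7 with the 50000 regions of highest −log10 p per list, 24.7 with genes of 300 kb or more, 21.6 per 100 kb of gene, 20.4 with all first introns left out, 21.9 on autosomes, and 21.1 to 21.9 in single lists. With the 50000 regions the densities themselves fell to 3.94 per 100 kb in T cell, 0.142 in neuronal and 2.10 in broadly expressed genes, and the median signals were 10.04 and 9.82. The number of regions was 2931 with the 50000 regions, 3512 with genes of 300 kb or more, and 6686 and 7392 in the single lists. It was 5122, against 6068, when the first introns of every protein-coding transcript were left out. Part of the later intron regions thus lay in the first intron of another coding transcript. In that setting T cell genes had 7.03 regions per 100 kb, and 97.0% of them held a region. The median width was 805 bp with the 50000 regions and 496 to 535 bp in single lists. In single lists regions are not joined, and those seen in 1 replicate only, with median widths of 258 and 279 bp, are counted too. The AP-1 share was 35.0% at a −log10 q of at least 5, 40.5% with the 50000 regions, 34.9% and 33.5% with genes of 300 and 150 kb or more, and 32.4 to 33.1% in single lists. The share of genes denser in later than in first introns was 55.4% at that q, 54.5% with the 50000 regions, 52.4% with the longest transcript by spliced length, 53.4% with exons of protein-coding genes only, 59.3% and 50.5% with genes of 300 and 150 kb or more, 49.5% with all first introns left out, 53.7% on autosomes and 53.4 to 53.6% in single lists. The cause of these shifts was not tested. No value was computed for that share per 100 kb of gene. No paired analysis was possible because there was 1 group. The read depth is unknown, so an empty gene means no called region, not closed chromatin.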

Other observations

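Chromosome X held 94 of the 6068 later intron regions and chromosome Y held 0. Of the genes of 1000 kb or more, 31 held no shared later intron region. Members that also lay in the first intron of another very long gene numbered 37, and 232 of the 6087 pairs lay outside the introns of the longest coding transcript, as did the strongest regions of Pde4d, Cacna1e and Foxn3. The median distance of a later intron region from the nearest exon was 5.49 kb, and from the nearest annotated start 19.2 kb.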
